A study of Mus musculus with 6 samples.

Results

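CC chemokines are small secreted proteins with a pair of adjacent cysteines near the N-terminus, and 10 of their genes (Ccl2, Ccl5, Ccl6, Ccl7, Ccl9, Ccl12, Ccl17, Ccl20, Ccl22 and Ccl28) were described in isolated mouse glomeruli. They were taken by gene symbol from a table of 24035 named genes, and all 10 were found. Glomeruli were loaded with iron oxide by perfusion and collected with a magnet, and their RNA was sequenced from 3 knockout libraries, of genotype Podocin-Cre Klf4 fl/fl, and 3 control libraries, of genotype Klf4 fl/fl, all on the FVB/N strain. Both groups thus carry floxed Klf4, a zinc-finger transcription factor gene, and the knockout mice add a Cre recombinase driven by the podocin promoter, which is active in podocytes, the epithelial cells around the glomerular capillaries. Mice with Cre and unfloxed Klf4 were not part of the design. Age is not given in the labels, and nothing there ties each library to its own mouse, so p-values here reflect only how these libraries vary, which may be technical in part.

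CC chemokines bind G protein-coupled receptors of the CCR family on leukocytes and guide their migration along gradients held on matrix and endothelium. Inflammatory members such as CCL2 and CCL5 are induced in injured tissue and draw monocytes and T cells, while others, such as CCL28, are made by resting epithelia. Atypical receptors bind the same ligands without G protein signalling and remove them. In kidney disease CCL2 is known as a monocyte attractant made by glomerular and tubular cells.

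The libraries held 38936993 to 58272424 counted reads. Correlations of log2 values were 0.969 to 0.981 within groups and 0.891 to 0.949 between groups. Klf4 stood at 29.4, 40.3 and 41.4 RPKM in knockout replicates 1 to 3, against 21.5, 44.3 and 49.8 RPKM in control replicates 1 to 3, which overlap. Cells other than podocytes keep the gene, so its level in whole glomeruli does not check the labels. The podocyte gene Nphs1, which encodes nephrin, fell to 84.0 ± 43.3 RPKM in knockout glomeruli, against 323 ± 86.8 RPKM in controls (SD, n = 3 each; adjusted p = 0.0254 by limma, 0.0531 with no filter). In bulk RNA, fewer cells of a type and less RNA per cell cannot be told apart. Levels are RPKM, the reads of a gene divided by its length and by the depth of the library. A log2 change is the difference of group means of log2(RPKM + 0.5), knockout minus control, a scale on which low genes change by less than their ratio. Genes averaging 0.5 RPKM or more over the 6 libraries entered the test (13912 genes), and p-values are from limma, adjusted by the Benjamini-Hochberg method with a threshold of 0.05.

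The promoters of Ccl20 and Ccl28, both known as epithelial chemokine genes, are shown because Ccl20 was almost absent from controls while Ccl28 was the highest member there. RefSeq (GRCm38.p6) gave a promoter for 7 of the 10 members. The stretches are the 250 bases before the annotated start, on the plus strand, at chr1:83116516-83116765 for Ccl20 and chr13:119623569-119623818 for Ccl28. Capitals mark matches, on either strand, to a loose form of the NF-κB site, which is GGG, then any 5 bases, then CC.
Ccl20: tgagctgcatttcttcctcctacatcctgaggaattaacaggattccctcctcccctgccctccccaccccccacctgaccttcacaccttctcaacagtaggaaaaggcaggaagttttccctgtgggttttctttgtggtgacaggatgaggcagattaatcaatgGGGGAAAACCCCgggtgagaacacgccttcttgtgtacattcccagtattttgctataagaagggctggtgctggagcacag
Ccl28: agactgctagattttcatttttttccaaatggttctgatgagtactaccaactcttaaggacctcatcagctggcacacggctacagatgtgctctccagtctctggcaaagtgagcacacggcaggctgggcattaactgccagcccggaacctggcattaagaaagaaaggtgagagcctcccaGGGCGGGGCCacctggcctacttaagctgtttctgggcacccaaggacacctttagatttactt
Ccl20 held 3 overlapping matches between 82 and 71 bases before the start, and Ccl28 held 1 match between 64 and 55 bases before it. The NF-κB form was in 4 of the 7 member promoters (Ccl9, Ccl20, Ccl22 and Ccl28) and in 45.8% of 32851 promoter windows of the same length. CACCC, the core of sites bound by KLF factors, was in 5 of 7 and in 52.0% of all windows, and its matches in Ccl20 and Ccl28 did not overlap those in capitals. TGANTCA, searched on both strands as CACCC was, the AP-1 site, was in the Ccl9 window and in 6.75% of all windows.

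CC chemokine RNA was higher in knockout glomeruli for 9 of the 10 members, and none was lower by limma (Ccl28 at an unadjusted p under 0.05; voom called 8 higher and 0 lower). Ccl2 and Ccl5, attractants of monocytes and T cells, reached the highest levels, and Ccl7 and Ccl20 were almost absent from controls. Ccl28 did not pass the test and had the only negative change among the 10. Of all tested genes 9.98% were called higher. The libraries of the groups did not overlap for the same 9 members, and for 35.1% of all tested genes in either direction. Of the 10 members, 7 (all but Ccl5, Ccl6 and Ccl28) had a control mean under 0.5 RPKM and entered the test only through the knockout libraries. Among the 553 tested genes of that kind 60.6% were called higher, so the count of 9 is given as a description. With every detected gene tested, 6 of the 10 members were higher (6.13% of 19468 genes were), and Ccl6, Ccl12 and Ccl17 lost the call. Ccl2, Ccl5, Ccl7, Ccl9 and Ccl20 were called in each of the 15 other fits run.

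**Figure D1:**
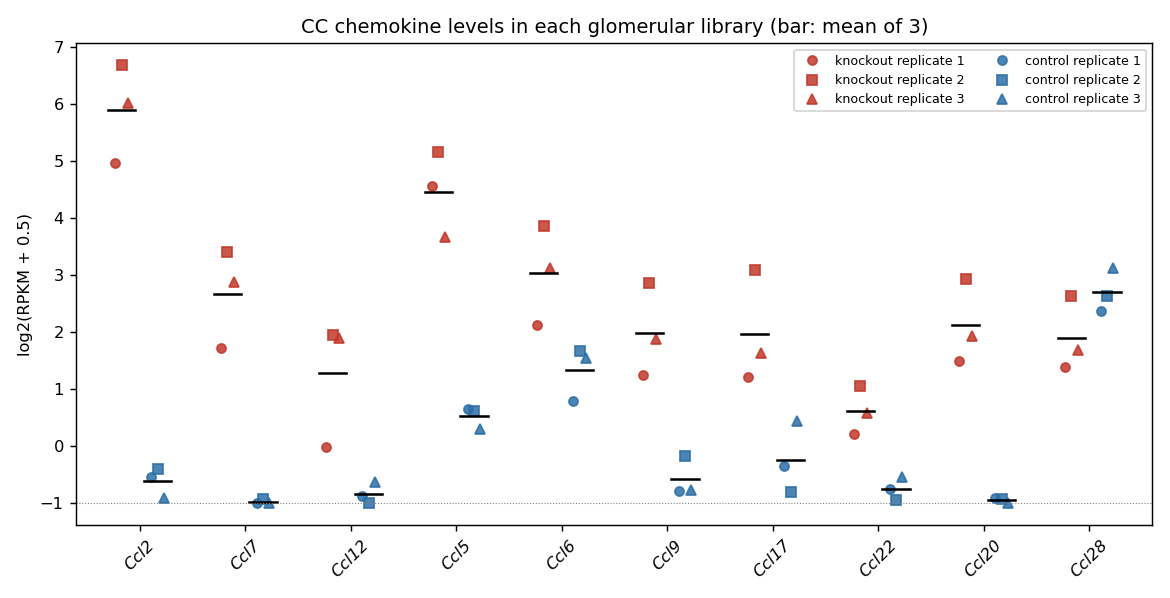
Level of the 10 CC chemokines in each library on the log2(RPKM + 0.5) scale (y axis), knockout (red) left of control (blue) for each gene, symbols for replicates and bars for the mean of 3. The dotted line is 0 RPKM; the groups do not overlap for 9 genes and overlap for Ccl28.

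Ccl2, Ccl7 and Ccl12 encode ligands of the receptor CCR2, which brings monocytes out of the bone marrow and into tissue. The genes lie together on chromosome 11, Ccl2 at 82035577 to 82037452, Ccl7 at 82045712 to 82047525 and Ccl12 at 82101845 to 82103399 (RefSeq, GRCm38). Ccl2 stood at 30.7, 102 and 64.6 RPKM in knockout replicates 1 to 3, against 0.183, 0.260 and 0.0319 RPKM in control replicates 1 to 3. The lowest knockout library was far above the highest control, and the values rest on 1120, 3348 and 3033 reads in knockouts against 6, 11 and 1 reads in controls. Ccl2 averaged 65.7 ± 35.6 RPKM in knockouts and 0.158 ± 0.116 RPKM in controls, and its log2 change was 6.51 (95% interval 5.57 to 7.44, SE 0.40, adjusted p = 9.70e-04). It overlaps the antisense gene Gm17268, and with no strand setting stated their reads cannot be told apart.

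Ccl7, which encodes MCP-3, stood at 2.79, 10.1 and 6.81 RPKM in knockout replicates 1 to 3, against 0, 0.0238 and 0 RPKM in control replicates 1 to 3. The controls held 1 read in all, in replicate 2, against 746 reads in the knockouts. Corrected for depth the ratio of reads was 683, with a 95% counting interval of 122 to 27019 (exact binomial), and the log2 change was 3.64 (SE 0.39, adjusted p = 3.10e-03). Ccl12, which encodes the mouse chemokine MCP-5, stood at 0.495, 3.34 and 3.23 RPKM in knockouts, against 0.0459, 0 and 0.144 RPKM in controls. Knockout replicate 1, with 12 reads, was nearest the controls, which had 0 to 3 reads. Its log2 change was 2.11 (SE 0.50, adjusted p = 0.0351), and the call was lost without each single library except knockout replicate 1 (adjusted p up to 0.129).

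Ccl5, Ccl6 and Ccl9 lie in a second group on chromosome 11. Ccl5 (83525778 to 83530518), a product of activated T cells, macrophages and injured epithelium that binds CCR1 among other receptors, stood at 23.1, 35.3 and 12.2 RPKM in knockout replicates 1 to 3, against 1.07, 1.04 and 0.725 RPKM in control replicates 1 to 3. All 3 knockout libraries were far above all 3 controls. They averaged 23.5 ± 11.6 RPKM in knockouts and 0.944 ± 0.189 RPKM in controls, a 24.9-fold difference (log2 change 3.94, SE 0.35, adjusted p = 2.06e-03).

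Ccl6 and Ccl9 encode rodent chemokines of macrophages and other myeloid cells that signal through CCR1. Ccl9 (83572917 to 83578636) stood at 1.88, 6.73 and 3.15 RPKM in knockouts, against 0.0818, 0.386 and 0.0854 RPKM in controls, a log2 change of 2.57 (SE 0.40, adjusted p = 9.36e-03). Ccl6 (83587886 to 83593087) was the member with the second highest control level, at 3.86, 14.0 and 8.16 RPKM in knockouts, against 1.23, 2.68 and 2.43 RPKM in controls. Knockout replicate 1 was the nearest to the controls. Ccl6 overlaps E230016K23Rik, which was at 0.402 to 1.23 RPKM in knockouts and 0.223 to 0.853 RPKM in controls. The Ccl6 log2 change of 1.69 (SE 0.44, adjusted p = 0.0447) lost the call in 10 of the 15 other fits, among them those without each single library except knockout replicate 1, with an adjusted p of up to 0.132.

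Ccl17 and Ccl22 are dendritic cell and macrophage products that share the receptor CCR4, and they lie 58.0 kb apart on chromosome 8 (Ccl22 at 94745684 to 94751388, Ccl17 at 94809380 to 94812038). Ccl17 stood at 1.81, 7.97 and 2.60 RPKM in knockout replicates 1 to 3, against 0.287, 0.0741 and 0.849 RPKM in control replicates 1 to 3. It had the widest relative spread of the members in knockouts, with an SD of 81.3% of the mean, and a log2 change of 2.21 (SE 0.51, adjusted p = 0.0326). Ccl22 stood at 0.659, 1.59 and 0.995 RPKM in knockouts, against 0.0951, 0.0210 and 0.184 RPKM in controls, a log2 change of 1.36 (SE 0.26, adjusted p = 0.0175). Both genes were lowest in control replicate 2 and highest in control replicate 3. Both lost the call without knockout replicate 2 or control replicate 1 or 2, with adjusted p up to 0.0856 for Ccl17 and 0.0594 for Ccl22 over the fits run.

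Ccl20 and Ccl28, the epithelial chemokines whose promoters are printed above, lay apart. Ccl20 (chromosome 1, 83116766 to 83119167), the ligand of CCR6 on memory T cells and dendritic cells, stood at 2.31, 7.16 and 3.30 RPKM in knockout replicates 1 to 3, against 0.0307, 0.0237 and 0 RPKM in control replicates 1 to 3. The controls held 2 reads in all against 472 in the knockouts, a depth-corrected ratio of 216 with a counting interval of 59.5 to 1790. The log2 change was 3.07 (SE 0.35, adjusted p = 3.53e-03). Ccl28 (chromosome 13, 119623819 to 119654359), a mucosal chemokine that binds CCR10, stood at 2.10, 5.74 and 2.71 RPKM in knockouts, against 4.69, 5.68 and 8.17 RPKM in controls. Knockout replicate 2 lay within the control range and the other two knockout libraries lay below it. Ccl28 averaged 3.52 ± 1.95 RPKM in knockouts and 6.18 ± 1.79 RPKM in controls, and its log2 change was −0.80 (95% interval −1.61 to −0.0011, SE 0.34, unadjusted p = 0.0498, adjusted p = 0.163 by limma).

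The order of the members differed between the groups. In knockout glomeruli Ccl2 had the highest mean RPKM, followed by Ccl5 and Ccl6, and Ccl22 had the lowest, while the ranges of every pair of neighbours in that order overlapped. Within each knockout library Ccl2 was above Ccl5, by 1.33-fold, 2.89-fold and 5.29-fold in replicates 1 to 3. In controls Ccl28 was highest, then Ccl6, then Ccl5, with no overlap between these neighbours, and the members below them overlapped with their neighbours. The summed level of the 10 genes was 69.7, 194 and 108 RPKM in knockout replicates 1 to 3, against 7.71, 10.2 and 12.6 RPKM in control replicates 1 to 3. Ccl28 made up 3.02%, 2.96% and 2.51% of that sum in knockouts and 60.8%, 55.8% and 64.7% in controls. The 3 CCR2 ligands together made up 48.8%, 59.5% and 69.2% in knockouts and 2.97%, 2.78% and 1.39% in controls.

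**Figure D2:**
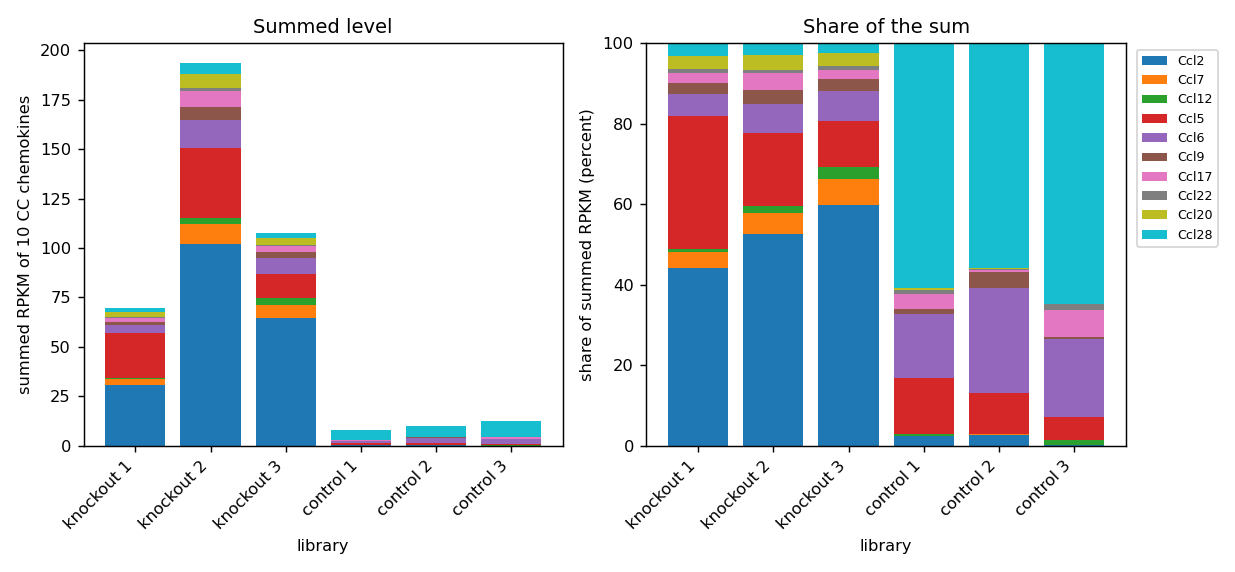
Summed RPKM of the 10 CC chemokines per library (left) and the share of each gene in that sum in percent (right), with knockout libraries left of control libraries. Ccl2 and Ccl5 fill most of the bars in knockouts, and Ccl28 fills 55.8% to 64.7% in controls.

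Knockout replicate 2 was the highest of the knockout libraries for all 10 members, Ccl28 included, and knockout replicate 1 was the lowest for 9 of them, the exception being Ccl5. The ratio of the highest to the lowest knockout library was 2.41 for Ccl22, 3.32 for Ccl2 and 6.76 for Ccl12. Nphs1 was lowest in the same library, at 35.2 RPKM in knockout replicate 2, against 98.9 and 118 RPKM in knockout replicates 1 and 3. Without knockout replicate 2 the count of higher members was 5, as it was without control replicate 1 or control replicate 2.

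**Figure D3:**
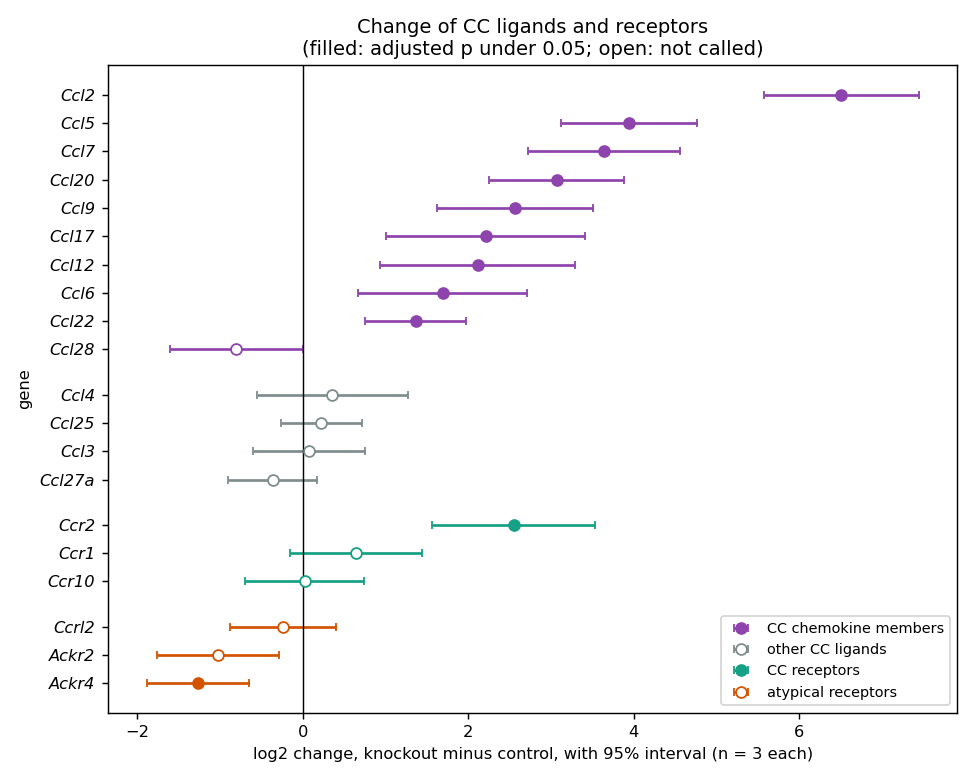
Log2 change (x axis, knockout minus control, with 95% intervals from limma, n = 3 libraries each) of the tested CC ligands and of the CC and atypical receptors described in the text. Filled points passed an adjusted p of 0.05; 9 members and Ccr2 are higher and Ackr4 is lower.

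None of the other ligands tested passed. Of 14 other CC ligand genes in the table, 4 were tested and 0 were called in either direction (0 had an unadjusted p under 0.05 in limma; voom called 0). Ccl3 and Ccl4, macrophage chemokines whose genes lie near Ccl6 on chromosome 11, overlapped between the groups. Ccl3 stood at 0.392, 1.06 and 0.587 RPKM in knockouts, against 0.405, 0.988 and 0.455 RPKM in controls (log2 change 0.08, 95% interval −0.60 to 0.76, adjusted p = 0.888 by limma). Ccl4 had a log2 change of 0.36 (interval −0.55 to 1.27). Ccl25 and Ccl27a, epithelial chemokines for CCR9 and CCR10, had log2 changes of 0.22 (interval −0.27 to 0.71) and −0.36 (interval −0.90 to 0.17). Ccl25 overlaps Elavl1 and Ccl27a overlaps Il11ra1, each on the other strand. Without a stated strand setting the reads of each pair cannot be told apart.

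The other 10 ligand genes were under the filter. Ccl21a, Ccl21b, Ccl21c, Ccl26 and Ccl27b were listed at 0 in every library, and several of these have near-identical copies. Ccl8, a further gene of the monocyte chemoattractant group, had 8, 42 and 16 reads in knockouts and 0 reads in each control. Against a floor of 3 reads over the control group the depth-corrected ratio was 20.1. The lower 95% counting limit of the ratio with 0 control reads was 15.9 (exact binomial). Ccl24, an eosinophil attractant, had 10, 25 and 28 reads in knockouts against 4, 0 and 0 reads in controls, and was the only one of these ligands called when no filter was set (adjusted p = 0.0465).

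Receptors were set beside their ligands. Ccr2 rose with its ligands. Ccr2, the receptor of Ccl2, Ccl7 and Ccl12, stood at 2.30, 8.03 and 6.46 RPKM in knockout replicates 1 to 3, against 0.336, 0.764 and 0.279 RPKM in control replicates 1 to 3 (log2 change 2.55, SE 0.42, adjusted p = 0.0108). Like 9 of the ligands, Ccr2 was lowest in knockout replicate 1 and highest in knockout replicate 2, and it kept the call in each of the 15 other fits. Its control mean was under 0.5 RPKM, as was that of Ccr1.

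Ccr1, the receptor used by Ccl6, Ccl9 and Ccl5, did not pass and overlapped between groups, at 0.453, 1.92 and 0.921 RPKM in knockouts against 0.304, 0.612 and 0.463 RPKM in controls (log2 change 0.64, SE 0.34, adjusted p = 0.253). Ccr10, the receptor of Ccl28, averaged 1.62 ± 0.583 RPKM in knockouts and 1.62 ± 0.694 RPKM in controls (log2 change 0.02, 95% interval −0.69 to 0.74). Ccr10 overlaps Cntnap1 on the other strand, which stood at 3.27 to 5.20 RPKM in knockouts and 4.66 to 6.46 RPKM in controls. With no strand setting stated, the reads of Ccr10 and Cntnap1 cannot be told apart. Ccr4, the receptor of Ccl17 and Ccl22, was under the filter, with 3, 3 and 8 reads in knockouts against 5, 1 and 12 reads in controls. These Ccr4 counts overlapped between the groups (adjusted p = 0.696 by limma when no filter was set). Ccr6, the receptor of Ccl20, had 10, 16 and 17 reads in knockouts against 0, 1 and 0 reads in controls, and was called higher when no filter was set (adjusted p = 0.0198).

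**Figure D4:**
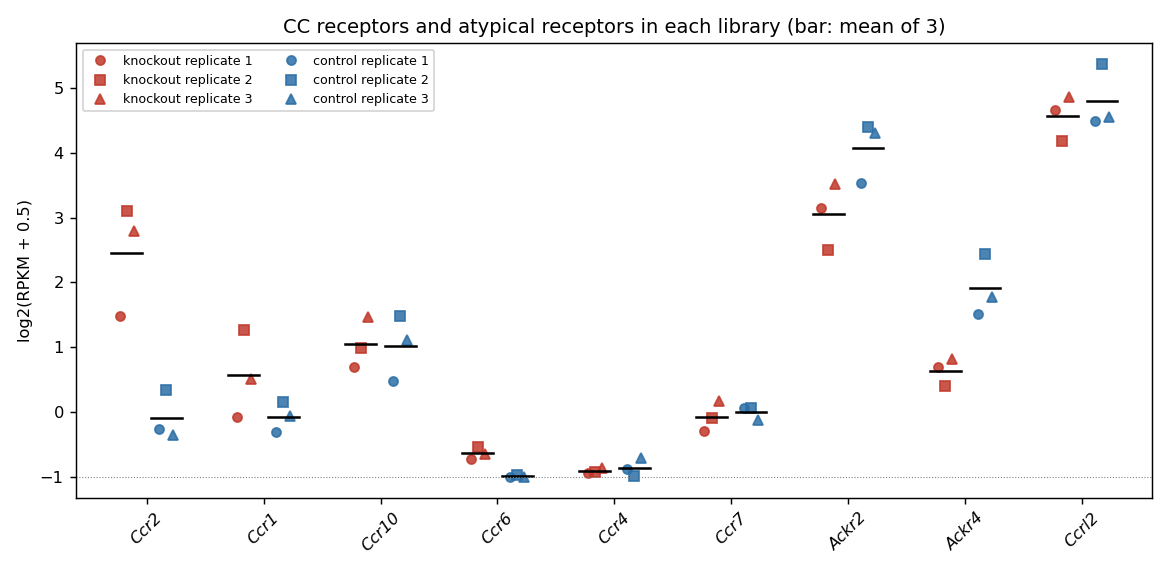
Level of the CC receptors and atypical receptors described in the text, and of Ccr7, in each library on the log2(RPKM + 0.5) scale, knockout (red) left of control (blue), with the mean of 3 as a bar. Ccr2 and Ccr6 are higher in all 3 knockout libraries, and Ackr2 and Ackr4 are lower in all 3.

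Among 3 tested atypical receptors 1 was lower and 0 were higher. Ackr4, which takes up CCL19, CCL21 and CCL25, fell, with 1.12, 0.826 and 1.26 RPKM in knockout replicates 1 to 3 against 2.34, 4.93 and 2.93 RPKM in control replicates 1 to 3 (log2 change −1.27, SE 0.26, adjusted p = 0.0231). Of all tested genes 3.48% were called lower. The Ackr4 call was lost without knockout replicate 1 or 2 or control replicate 3, with adjusted p up to 0.0931 over the fits run. Ackr4 overlaps Acad11 on the other strand, which stood at 33.5, 27.4 and 18.6 RPKM in knockouts against 21.0, 15.8 and 24.5 RPKM in controls. Ackr2, the decoy receptor for inflammatory ligands that include CCL2 and CCL5, stood at 8.32, 5.17 and 11.0 RPKM in knockouts, against 11.1, 20.6 and 19.3 RPKM in controls. The highest knockout library was just below the lowest control, and the change did not pass (log2 change −1.02, SE 0.32, adjusted p = 0.0736); groups that do not overlap, with knockouts lower, made up 11.4% of tested genes. Ackr2 was called without knockout replicate 3 or control replicate 1. Ccrl2, a chemerin-binding member of the family, had a log2 change of −0.24 (SE 0.27) with overlapping groups, and Ackr1 was under the filter with 0 to 7 reads.

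Genes that act downstream of the receptors or cut their ligands were counted from lists. Of 20 signalling and trafficking genes, 5 were higher and 0 lower by limma (6 and 3 at an unadjusted p under 0.05, 4 and 0 by voom), with a median log2 change of 0.19 against 0.097 over all genes tested. Among them were the Src family kinase Fgr (2.87 ± 0.648 RPKM in knockouts, 0.549 ± 0.258 RPKM in controls), the PI3Kγ regulatory subunit Pik3r5, the leukocyte GTPase Rac2 and its activator Dock2 (log2 change 0.98), the last named after its value was seen. Of the 20, 3 had passed the filter only through the knockout libraries, and without a filter 2 were higher. Of 7 tested genes for enzymes that process chemokines, 4 were higher and 0 lower by limma (5 and 1 at an unadjusted p under 0.05, 4 and 0 by voom), with a median log2 change of 0.55. Of these 7, 2 passed the filter only through the knockout libraries, and with no filter 4 of 9 were higher. Mmp12, a macrophage metalloproteinase, stood at 3.99 ± 2.55 RPKM in knockouts and 0.0200 ± 0.0240 RPKM in controls (log2 change 2.96, SE 0.37, adjusted p = 4.64e-03). Ctss, the lysosomal protease cathepsin S, averaged 29.6 ± 13.8 RPKM in knockouts and 3.19 ± 1.20 RPKM in controls. Cpn1 and Mmp14 were the other higher genes, with log2 changes of 2.34 and 0.50.

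Summed levels of monocyte and macrophage markers and of all-leukocyte markers were higher in every knockout library than in any control, and their part in the results was not tested. Of 13 tested monocyte and macrophage markers 10 were higher and 1 (Mrc1) was lower, and their summed level was 154 to 376 RPKM in knockouts against 69.1 to 103 RPKM in controls. Of these 13, 4 passed the filter only through the knockout libraries, and with no filter 8 were higher and 0 lower. The 6 all-leukocyte markers, each above the filter in controls too, summed to 41.7 to 83.4 RPKM in knockouts and 21.1 to 31.2 RPKM in controls, and 5 were higher (4 with no filter). Cd14, a monocyte co-receptor for endotoxin, rose to 54.7 ± 24.6 RPKM in knockouts, against 8.77 ± 1.43 RPKM in controls, and Cd68, a macrophage lysosomal protein, rose to 9.44 ± 3.34 RPKM in knockouts, against 1.88 ± 0.211 RPKM in controls. Of 5 dendritic cell markers 3 were higher and 0 lower by limma, also at an unadjusted p under 0.05 (2 and 0 by voom), with sums of 22.3 to 39.8 RPKM in knockouts and 20.7 to 28.0 RPKM in controls. Of these 5, 2 passed the filter only through the knockout libraries, and with no filter 4 of 7 were higher. Of 11 T and NK cell markers 4 were tested and 0 called (limma; 3 higher at an unadjusted p under 0.05, 0 by voom), with sums of 4.53 to 9.19 RPKM in knockouts and 3.54 to 4.17 RPKM in controls. Cd3e, of the T cell receptor complex, had 27, 41 and 55 reads in knockouts against 15, 18 and 20 reads in controls. The 5 neutrophil markers in the table summed to 3.63 to 22.6 RPKM in knockouts and at least 25.1 RPKM in controls, and 0 of 4 tested were called (limma; 2 lower at an unadjusted p under 0.05, 0 by voom). No marker of these lists was at 0 in all libraries. Of 8 podocyte markers 6 were lower (4 with no filter), with sums of 724 to 1803 RPKM in knockouts and 2681 to 5139 RPKM in controls. Of 6 mesangial markers 3 were lower (1 with no filter), with sums of 461 to 703 RPKM in knockouts and 938 to 1405 RPKM in controls. The 6 endothelial markers summed to 893 to 1551 RPKM in knockouts and 1672 to 2459 RPKM in controls, with 0 called by limma (4 lower at an unadjusted p under 0.05, 1 lower by voom). Of 6 parietal epithelial markers 5 were higher (4 with no filter), with sums of 161 to 347 RPKM in knockouts and 44.8 to 61.4 RPKM in controls. The 7 markers of distal nephron segments (loop to collecting duct) summed to 985 to 2612 RPKM in knockouts and 434 to 1205 RPKM in controls, with 0 of 7 called (limma; 4 higher at an unadjusted p under 0.05, 0 by voom). The 7 proximal tubule markers summed to 881 to 1901 RPKM in knockouts and 911 to 1933 RPKM in controls. Of these 7 markers 1 was higher and 0 lower by limma (2 and 1 at an unadjusted p under 0.05, 1 and 0 by voom). Immediate-early genes, which respond to tissue digestion, were higher for 4 of 15 and summed to 551 to 822 RPKM in knockouts and 531 to 763 RPKM in controls. Of these 15, 2 passed the filter only through the knockout libraries, and with no filter 4 were higher.

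Each member was also read against Ptprc, which encodes CD45 of all leukocytes, within the same library. Ptprc stood at 3.28, 6.83 and 5.49 RPKM in knockout replicates 1 to 3, against 1.29, 2.79 and 1.06 RPKM in control replicates 1 to 3 (log2 change 1.39, SE 0.35, adjusted p = 0.0404), a call lost in 6 of the 15 other fits. The log2 ratio of Ccl2 to Ptprc averaged 3.43 ± 0.379 in knockouts and −1.69 ± 0.383 in controls, a difference of 5.12. The differences for Ccl5, Ccl7, Ccl20 and Ccl9 were 2.55, 2.25, 1.68 and 1.18, and the groups did not overlap for any of these 5 genes. For Ccl28 the ratio averaged −0.557 ± 0.335 in knockouts and 1.64 ± 0.788 in controls, a difference of −2.20 with no overlap. For Ccl17, Ccl12, Ccl6 and Ccl22 the differences were 0.82, 0.72, 0.30 and −0.028, and the groups overlapped. These 4 values were not stable. Without control replicate 2 they were 0.21, 0.31, 0.14 and −0.45, and without control replicate 3 they were 1.37, 1.04, 0.62 and 0.28. With a pseudocount of 0.1 the difference was 1.51 for Ccl17, 2.03 for Ccl12, 0.27 for Ccl6 and 0.96 for Ccl22, whose sign turned. The 6 ratios without overlap had an exact permutation p = 0.1, two-sided, which is the smallest that 3 against 3 libraries allow (0.167 after adjustment over the 10 ratios), so none can pass 0.05.

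**Figure D5:**
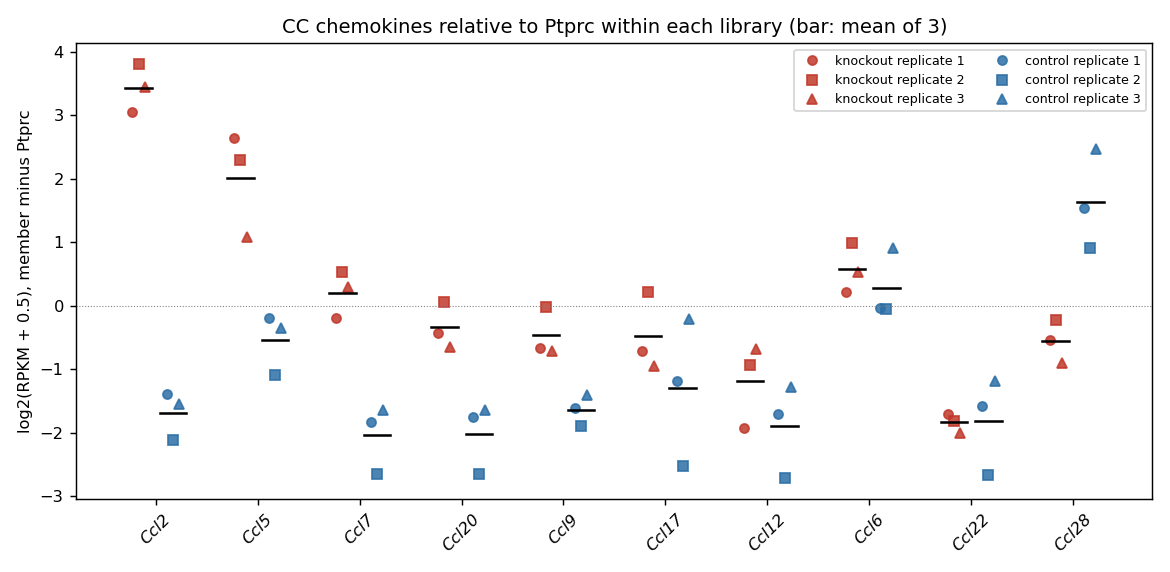
Log2(RPKM + 0.5) of each CC chemokine minus that of Ptprc within each library, genes ordered by the difference between groups, knockout (red) left of control (blue), with the mean of 3 as a bar. Ccl2 is 5.12 higher in knockouts, the groups overlap for Ccl17, Ccl12, Ccl6 and Ccl22 (Ccl22 turns positive with a pseudocount of 0.1), and Ccl28 is 2.20 lower.

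The genes outside the CC families whose centred log2 profile over the 6 libraries lay nearest to that of Ccl2 were Lcn2, C3 and Fgg, with root mean square differences of 0.471, 0.586 and 0.661 on the log2 scale. Lcn2, which encodes the iron-carrier-binding injury protein NGAL, averaged 140 ± 69.0 RPKM in knockouts and 0.739 ± 0.223 RPKM in controls. Nearest to Ccl5 were Il1f6, which encodes interleukin-36α and was listed at 0 in all controls, Cfi and Serpina10 (0.183, 0.258 and 0.261). Nearest to Ccl28 were Mir6907, Plk3 and Rasgef1b (0.229, 0.275 and 0.283).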

How the data were processed

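The deposited values are RPKM that the authors computed for each gene. The tools FastQC, STAR, featureCounts and edgeR and the build mm10 are named, without versions, per the submitters' processing notes; annotation and strand setting were not stated there. Each column was assigned by its header. In 27 rows a date stands in place of the symbol, and these were left out. Reads were recovered from the steps of the RPKM values, which are whole multiples of 1 read (100% of 24062 rows within 0.001 read); intervals and floors from reads cover counting error only. Genes averaging 0.5 RPKM or more were fitted on log2(RPKM + 0.5) with limma 3.58.1 (R 4.3.3), with a mean-variance trend, two-sided, without covariates. The fit was tried on simulated normal log2 values, with changes set only in genes of higher mean level. Those data do not cover members near 0 in controls. Exact permutation tests used SciPy 1.17.1. The members and lists were chosen with earlier results of these data known. Named are all members, the called CC ligands and receptors, at most 4 genes of each other list with the smallest p, Ptprc, Klf4, Cd3e, Nphs1, and the nearest profiles of Ccl2, Ccl5 and Ccl28; the other CC ligands and receptors, overlapping genes, Dock2 and Mrc1 were named after their values were seen. Some genes that the rule names are left out. Alternatives were other pseudocounts, filters, scalings, variance models, voom on the reads, a replicate block and leaving out each library.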

Additional observations from a re-analysis of the deposited data

How the results depend on the processing

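Ccl2, Ccl5, Ccl7, Ccl9 and Ccl20 kept their call in all 15 alternatives, and no member changed direction in any of them. Of the 10 members 5 were higher under quantile normalization and 5 to 9 without 1 library. The call of Ccl6 was lost with no filter and with a filter at 2 RPKM (log2 change 1.69 in both), under quantile normalization (1.45), under median scaling (1.60) and with voom (1.89), and the change was 1.28 to 2.15 without 1 library. Ccl12 lost it with no filter (2.11), under quantile normalization (1.77) and under the block (2.11), with 1.78 to 2.76 without 1 library. Ccl17 lost it with no filter (2.21), under quantile normalization (1.88) and under the block (2.21), with 1.66 to 2.60 without 1 library. Ccl22 lost it under quantile normalization (0.94) and under the block (1.36), with 1.14 to 1.57 without 1 library. Among other CC ligands 1 was higher with no filter, and among CC receptors 1 was higher of the 1 tested with a filter at 2 RPKM. Of all genes 1389 were higher and 484 lower in the fit as reported. The counts were 841 higher with a filter at 2 RPKM, 849 higher and 798 lower under quantile normalization, and 526 to 1536 higher and 127 to 619 lower without 1 library; the lowest of these came without knockout replicate 2. Quantile normalization moved the median change over the tested genes to −0.048 (log2), against 0.097. Libraries that share a replicate number correlated in their deviations from the group means by 0.17, −0.22 and −0.46, so the numbers were not taken as pairs; with the replicate block 632 genes were higher and 179 lower, and Ackr4 lost its call. With a pseudocount of 0.1 the difference in log2 ratio to Ptprc was 6.35 for Ccl2, 4.17 for Ccl7, 2.19 for Ccl9, 2.03 for Ccl12, 3.45 for Ccl20 and 0.96 for Ccl22. Without 1 library the differences ranged from 0.098 to 0.62 for Ccl6 and from 0.95 to 1.30 for Ccl9. The cause of these shifts was not tested. Depth limits the control values of Ccl7, Ccl12 and Ccl20, which rest on 1, 4 and 2 reads in all.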
